A study of Mus musculus with 64 samples.

Results

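The 10 genes described here encode proteins that sense extracellular purine and pyrimidine nucleotides or adenosine, or that degrade such nucleotides. They are the ATP-gated channels P2rx4 and P2rx7 and the nucleotide receptors P2ry2, P2ry6, P2ry13 and P2ry14. The others are the adenosine receptors Adora2a, Adora2b and Adora3 and the ectonucleotidase Entpd1. The 10 genes were chosen by name as a set of receptors and 1 enzyme of the purine signal in myeloid cells, not by a cut on a measured value. Earlier results of these data were known when they were chosen. They are 10 of the 55487 genes listed in the count tables. All 10 passed the filter on low counts and were among the 14537 genes tested. The data were mRNA sequencing libraries of bone marrow-derived macrophages (BMMs), cells grown out of the marrow of femur and tibia of mice aged 8 to 12 weeks with medium conditioned by L929 cells as source of M-CSF. They came from 4 female Ahr+/+ mice of the C57BL/6JRj strain and from 4 Ahr-/- mice backcrossed to it, whose sex is not given in the sources used here and which lack the aryl hydrocarbon receptor (AhR), a transcription factor activated by ligands such as polycyclic aromatic hydrocarbons and indoles.

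The 64 libraries form 16 groups of 4. In each genotype and at each of 2 times, 3 h and 20 h, 1 group received vehicle (0.01% DMSO) and no bacteria and is called unactivated. The other 3 groups received vehicle, 1 µM benzo[a]pyrene (BaP, a polycyclic aromatic hydrocarbon) or 10 µM indole-3-carbinol (I3C, a plant indole) for 6 h, and then 10000000 heat-killed bacteria per ml of a vaccine strain of Salmonella enterica Serovar Enteritidis (called hk S.E. here) for 3 h or 20 h. There was no group with a ligand and no bacteria, so the ligands can be described in activated cells only. Because each library is RNA of a whole dish, fewer cells that express a gene and less RNA of that gene per cell cannot be told apart.

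Cells release ATP and other nucleotides when they are activated or damaged, and macrophages read them through several receptors at once. P2X receptors are ion channels opened by ATP, and P2Y receptors are G protein-coupled receptors for ATP, ADP, UTP, UDP or UDP-sugars. Entpd1 (CD39) on the cell surface removes phosphates from ATP and ADP, a further enzyme turns the product into adenosine, and the G protein-coupled adenosine receptors then restrain inflammatory activation.

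Libraries held between 12152496 and 50644601 read pairs on genes (median 24499165), apart from the 4th library of unactivated Ahr+/+ cells at 20 h, which held 233047331. The 8 macrophage marker genes summed to 18609 to 35732 CPM (counts scaled to 1000000 per library) in every library, those of B cells and of T or NK cells to less than 1 CPM, and the 3 erythroid markers were at 0. Mast cell and basophil markers reached 0.211 CPM at most, fibroblast markers 8.30 CPM and megakaryocyte markers 138 CPM. Some of the lists that moved with a group are given beside the results, but not for every comparison. The macrophage sum in Ahr+/+ cells was 26918 to 29442 CPM unactivated and 31650 to 34773 CPM with DMSO and hk S.E. at 3 h. At 20 h it was 25460 to 28848 and 18829 to 22840 CPM. These ranges overlapped in Ahr-/- cells. Megakaryocyte and dendritic cell sums were higher with hk S.E. at 3 h in both genotypes, without overlap. The part of these shifts in the results was not tested. Ahr itself was counted in Ahr-/- libraries at a higher level than in Ahr+/+ libraries, so the count over the whole gene does not check the deletion. Ahrr, a direct target of AhR, reached 18.7 CPM with BaP and 16 CPM with I3C against 5.63 CPM with DMSO in activated Ahr+/+ cells at 20 h, and lay between 0.671 and 0.911 CPM in the 3 activated Ahr-/- groups at 20 h.

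The genes lie at the following places in the mouse genome (GRCm38, which is mm10). P2rx4 (ENSMUSG00000029470.15) and P2rx7 (ENSMUSG00000029468.17) are neighbours on the plus strand of chromosome 5, at chr5:122707544-122729738 and chr5:122643911-122691432. P2ry2 (ENSMUSG00000032860.5) and P2ry6 (ENSMUSG00000048779.5) are neighbours on the minus strand of chromosome 7, at chr7:100996568-101012866 and chr7:100937630-100974649. P2ry13 (ENSMUSG00000036362.2) and P2ry14 (ENSMUSG00000036381.13) are neighbours on the minus strand of chromosome 3, at chr3:59207892-59210882 and chr3:59113855-59153618. Adora2a (ENSMUSG00000020178.6) lies at chr10:75316877-75334784, Adora2b (ENSMUSG00000018500.2) at chr11:62248984-62266453, Adora3 (ENSMUSG00000000562.5) at chr3:105870858-105908926 and Entpd1 (ENSMUSG00000048120.16) at chr19:40612366-40741602, all on the plus strand. Of the exon bases of Adora3, 20.9% are shared with Tmigd3 on the same strand, where reads are ambiguous and were not counted, so Adora3 levels are uncertain. The other members share no or, for P2rx7, 1.99% of their exon bases with a gene on their strand.

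The 250 bases before the start of 3 members are shown because these were the members whose Ahr+/+ libraries with BaP stood highest above DMSO at 20 h, as described below. They come from RefSeq on GRCm38.p6, are written 5′ to 3′ on the strand of the gene, and carry in capitals the core of the AhR response element (GCGTG, or CACGC where it lies on the other strand). P2ry13 is at chr3:59210883-59211132, P2ry14 at chr3:59153493-59153742 and Entpd1 at chr19:40612116-40612365.
P2ry13: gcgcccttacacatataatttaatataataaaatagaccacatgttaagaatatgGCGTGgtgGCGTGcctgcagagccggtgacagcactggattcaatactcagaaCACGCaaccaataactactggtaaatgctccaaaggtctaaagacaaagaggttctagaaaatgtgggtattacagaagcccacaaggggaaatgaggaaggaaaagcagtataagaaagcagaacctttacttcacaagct
P2ry14: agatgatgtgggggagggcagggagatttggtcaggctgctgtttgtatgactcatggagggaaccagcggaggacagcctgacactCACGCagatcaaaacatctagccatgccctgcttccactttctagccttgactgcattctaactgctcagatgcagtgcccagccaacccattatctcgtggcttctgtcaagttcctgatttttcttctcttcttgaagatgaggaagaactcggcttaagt
Entpd1: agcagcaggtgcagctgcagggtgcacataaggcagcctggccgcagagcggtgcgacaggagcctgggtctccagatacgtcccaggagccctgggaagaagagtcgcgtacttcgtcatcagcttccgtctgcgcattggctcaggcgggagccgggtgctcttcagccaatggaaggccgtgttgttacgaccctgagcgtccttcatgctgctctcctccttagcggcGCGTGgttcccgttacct

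The core was searched on both strands from 250 bases before to 50 bases after each start in the 14 windows found for 8 members, P2ry6 and Adora2a having no entry in the table. P2ry13 held 3 matches, beginning 195, 187 and 142 bases before its start (-195, -187 and -142). P2ry14 held 1 at -163 in the first of its 4 windows, Entpd1 1 at -18 in the first of its 2 windows, Adora2b 1 at -42, and both windows of P2ry2 held 1. Of all 32851 windows of the same length, 32.4% held the core, so a match describes the letters and marks no site of binding. The kappa B like motif, GGGA and TTCC with 2 bases between them (in 1.47% of all windows), the ISRE like motif, GAAA and GAAA with 2 bases between them (3.44%), and the GAS like motif TTCNNNGAA (8.3%) had no match in a member's windows. None of the 4 motifs is contained in another.

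Levels were compared between genes per length. Dividing the mean CPM by the exon length in kilobases (RPKM), unactivated Ahr+/+ cells at 3 h had P2ry6 at 39.9, P2rx4 at 25.4, Entpd1 at 17.3 and P2rx7 at 11.1 RPKM. P2ry2 (3.74 RPKM) and Adora2b (3.47) followed, and P2ry13 (0.83), P2ry14 (0.82), Adora3 (0.23) and Adora2a (0.11) were below 1 RPKM. After 3 h of hk S.E. the order was changed: Adora2a, the last of the 10 in unactivated cells, was at 24.3 RPKM next to P2rx4 at 27.2 and P2ry6 at 21.8. After 20 h of hk S.E., P2rx4 was highest at 67.1 RPKM, and Entpd1 was at 3.29 RPKM.

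**Figure D1:**
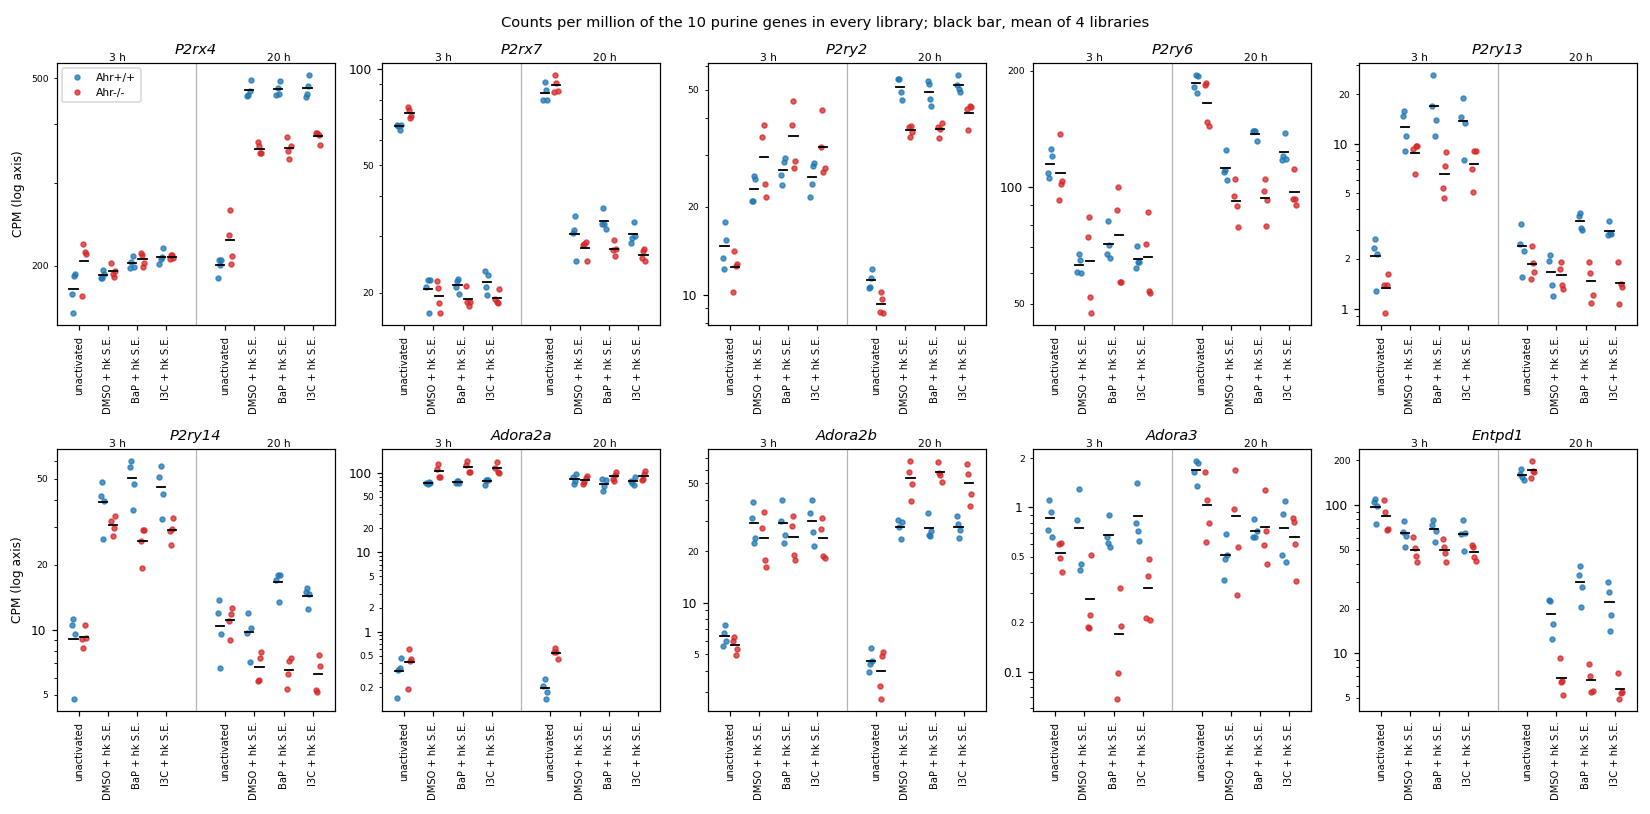
CPM (log axis) of each of the 10 genes in every library, by treatment and time, in Ahr+/+ (blue) and Ahr-/- (red) BMMs, with a black bar at the mean of 4 libraries. Adora2a lay between 0.142 and 0.618 CPM in all unactivated libraries and Entpd1 fell to a mean of 6.82 CPM in activated Ahr-/- cells at 20 h against 18.4 CPM in Ahr+/+ cells.

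Ordered by mean CPM over the 16 groups, each gene fell into a few steps. The range was narrowest for P2rx4 (477 CPM in Ahr+/+ cells with I3C and hk S.E. at 20 h against 179 CPM in unactivated Ahr+/+ cells at 3 h) and P2ry6 (186 against 63.0 CPM). It was widest for Adora2a, with 118 CPM in Ahr-/- cells with BaP and hk S.E. at 3 h and 0.194 CPM in unactivated Ahr+/+ cells at 20 h. Libraries of neighbouring groups in the order did not overlap at only a few of the 15 steps of each gene. For Adora2a and Adora2b this was the single step between the 12 activated and the 4 unactivated groups. For P2ry13 and P2ry14 it was the single step between the 6 activated groups at 3 h and all others. P2rx4 had 2 such steps, below the 3 activated Ahr+/+ groups at 20 h and below the 3 activated Ahr-/- groups at 20 h. Entpd1 had 3, below the unactivated groups at 20 h, below all groups at 3 h and below the activated Ahr+/+ groups at 20 h. P2rx7 had 4 and P2ry2 3, while Adora3, the gene with the fewest reads, had none.

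The first comparison asks which of these genes moved when macrophages met hk S.E., comparing vehicle and hk S.E. with unactivated cells. In Ahr+/+ cells at 3 h the adenosine receptors Adora2a and Adora2b and the nucleotide receptors P2ry2, P2ry13 and P2ry14 rose, while P2rx7, P2ry6 and Entpd1 fell. The same 8 genes passed in Ahr-/- cells with the same signs. By edgeR's quasi-likelihood test, with p-values adjusted after Benjamini and Hochberg over all 14537 genes and a gene called at an adjusted p below 0.01, 8 of 10 members were called in Ahr+/+ cells (5 higher, 3 lower) and 8 of 10 in Ahr-/- cells (5 higher, 3 lower). Of all genes tested, 56.6% were called in Ahr+/+ cells (24.2% higher, 32.3% lower) and 57.3% in Ahr-/- cells (25.5% higher, 31.8% lower). The median log2 fold change of the members was 0.37 in Ahr+/+ and 0.59 in Ahr-/- cells, against -0.10 and -0.08 over all genes.

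Adora2a, a receptor that raises cAMP when it binds adenosine, went from almost no reads to a high level. Unactivated Ahr+/+ libraries at 3 h held 0.146, 0.326, 0.345 and 0.474 CPM, which are 3 to 13 read pairs each, and activated ones held 73.7, 72.0, 78.0 and 74.2 CPM. All activated libraries lay far above all unactivated ones. The difference was 7.83 on the log2 scale (SE 0.202, a 227-fold ratio, adjusted p = 6.96e-38 by edgeR), and the size of the ratio rests on the few reads of the unactivated libraries. Ahr-/- libraries held 0.190, 0.602, 0.426 and 0.452 CPM unactivated and 113, 130, 88.9 and 89.3 CPM activated, a difference of 8.0 on the log2 scale. At 20 h the gene was still high, at 89.9, 73.3, 78.7 and 96.5 CPM in activated Ahr+/+ libraries, and the difference from unactivated cells was 8.80 in Ahr+/+ and 7.27 in Ahr-/- cells.

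Adora2b, the adenosine receptor that needs more adenosine than Adora2a, rose as well. Ahr+/+ libraries at 3 h held 5.60, 6.65, 7.4 and 5.93 CPM unactivated and 31.3, 38.9, 22.2 and 24.0 CPM activated. The groups did not overlap, and they differed by 2.19 on the log2 scale (SE 0.233, adjusted p = 4.35e-12 by edgeR). It was 2.09 in Ahr-/- cells at 3 h, 2.61 in Ahr+/+ cells at 20 h and 3.71 in Ahr-/- cells at 20 h. Adora3, an adenosine receptor that lowers cAMP, stayed below 2 CPM in every library. Among the 4 activation comparisons it was called in Ahr+/+ cells at 20 h only (log2 fold change -1.71, SE 0.354, adjusted p = 3.05e-05 by edgeR). There it fell from 1.64, 1.92, 1.35 and 1.86 CPM to 0.359, 0.486, 0.691 and 0.511 CPM, with no overlap. In Ahr-/- cells at 3 h its mean was 0.526 CPM unactivated and 0.275 CPM activated, with overlapping libraries and no call. Its log2 fold change in Ahr-/- cells at 20 h was -0.29 (adjusted p = 0.486 by edgeR), and the difference between genotypes was not called.

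P2ry13 (an ADP receptor) and P2ry14 (a UDP-glucose receptor) rose early and were back near the unactivated level by 20 h. P2ry13 held 2.34, 2.63, 1.28 and 2.13 CPM in unactivated and 14.7, 15.8, 9.07 and 11.2 CPM in activated Ahr+/+ libraries at 3 h, but 1.93, 2.13, 1.38 and 1.19 CPM in activated libraries at 20 h. Replicate 3 of the activated cells at 3 h, the lowest, was still above every unactivated library. P2ry13 differed from unactivated cells by 2.57 on the log2 scale at 3 h (SE 0.258, adjusted p = 5.93e-13 by edgeR) and -0.55 at 20 h (adjusted p = 0.0612 by edgeR). P2ry14 held 10.5, 11.3, 4.78 and 9.53 CPM unactivated and 41.5, 48.0, 26.4 and 39.4 CPM activated at 3 h, without overlap, and 9.70, 12, 7.10 and 10.2 CPM activated at 20 h. Its log2 fold change was 2.1 at 3 h (adjusted p = 1.78e-13 by edgeR) and -0.10 at 20 h (adjusted p = 0.666 by edgeR). Without AhR, P2ry13 rose by 2.71 and P2ry14 by 1.72 at 3 h, and at 20 h P2ry14 was below the unactivated level (log2 fold change -0.72, adjusted p = 0.00150 by edgeR).

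The difference between the effects of hk S.E. at 20 h and at 3 h was tested directly. It was -3.12 for P2ry13 and -2.20 for P2ry14 in Ahr+/+ cells and -2.93 and -2.44 in Ahr-/- cells, all called by edgeR. Neutrophil markers followed a like course: their 8 genes (5 tested) summed to 15.7 to 43.9 CPM in unactivated and 111 to 261 CPM in activated Ahr+/+ libraries at 3 h, and to 22.5 to 40.1 CPM in activated libraries at 20 h. The sums in Ahr-/- cells at 3 h were 20.7 to 25 and 115 to 118 CPM. S100a8, S100a9, Ngp and Ltf made up most of the sum, and the defining genes Ly6g, Mpo and Elane stayed below 0.5 CPM in every library. The part of such cells in the rise of P2ry13 and P2ry14 was not tested.

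P2ry2, a receptor for ATP and UTP, rose at 3 h and further at 20 h. Ahr+/+ libraries held 13.4, 12.3, 17.7 and 15.4 CPM unactivated and 20.9, 20.9, 25.4 and 24.8 CPM activated at 3 h, and 54.2, 54.5, 49.1 and 46.3 CPM activated at 20 h. The 3 sets of libraries did not overlap. Its log2 fold change was 0.65 at 3 h (SE 0.143, adjusted p = 7.23e-05 by edgeR) and 2.18 at 20 h (adjusted p = 6.11e-20 by edgeR). The values in Ahr-/- cells were 1.25 and 1.97. P2ry6, a receptor for UDP, fell in all 4 activation comparisons, by 0.87 and 0.76 at 3 h and by 0.73 and 0.84 at 20 h on the log2 scale in Ahr+/+ and Ahr-/- cells. Its Ahr+/+ libraries at 3 h held 109, 105, 125 and 120 CPM unactivated and 60.3, 67.1, 64.7 and 59.9 CPM activated.

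The 2 channels went apart. P2rx7, the ATP-gated channel known for starting inflammasome activation, fell at both times. Ahr+/+ libraries at 3 h held 67.0, 66.4, 64.3 and 67.0 CPM unactivated and 20.8, 21.9, 17.3 and 21.9 CPM activated, and the spread within each group was small against the difference of -1.69 on the log2 scale (SE 0.0783, adjusted p = 2.42e-26 by edgeR). The log2 fold change was -1.90 in Ahr-/- cells at 3 h, and -1.47 and -1.69 in Ahr+/+ and Ahr-/- cells at 20 h. P2rx4, a channel that sits largely in lysosomes, was not called at 3 h (log2 fold change 0.10 in Ahr+/+, adjusted p = 0.169, and -0.07 in Ahr-/- cells, adjusted p = 0.301 by edgeR). It rose at 20 h from 188, 206, 200 and 206 CPM to 458, 461, 469 and 496 CPM in Ahr+/+ libraries, a log2 fold change of 1.23 (SE 0.0631, adjusted p = 2.01e-24 by edgeR), and by 0.65 in Ahr-/- cells (adjusted p = 2.14e-13).

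Entpd1 fell little at 3 h and strongly at 20 h. Ahr+/+ libraries held 104, 110, 74.0 and 97.8 CPM unactivated and 65.3, 77.7, 52.3 and 61.9 CPM activated at 3 h, and 1 unactivated library lay inside the range of the activated ones. That difference of -0.59 (SE 0.193, adjusted p = 0.00682 by edgeR) was not called by DESeq2 (adjusted p = 0.0146) nor in 6 of 8 fits that leave out 1 library. The difference in Ahr-/- cells was -0.76 (adjusted p = 5.05e-04 by edgeR). At 20 h, unactivated Ahr+/+ libraries held 161, 174, 154 and 146 CPM and activated ones 22.9, 22.4, 12.5 and 15.7 CPM, a log2 fold change of -3.12 (SE 0.208, an 8.67-fold lower level, adjusted p = 1.56e-19 by edgeR). Unactivated Ahr-/- libraries held 153, 198, 169 and 167 CPM and activated ones 9.24, 6.41, 6.44 and 5.19 CPM, a log2 fold change of -4.66 (SE 0.226, 25.3-fold lower, adjusted p = 2.38e-25 by edgeR). Megakaryocyte markers, 4 genes of which 3 were tested, summed to 76.3 to 95.2 CPM unactivated and 12.7 to 19.4 CPM activated in these Ahr+/+ libraries, and to 50.1 to 73.4 and 9.16 to 54.5 CPM in the Ahr-/- libraries. Nearly all of the sum was Pf4, Ppbp and Itga2b stayed below 1 CPM and Gp1bb was at 0 in every library. Their part in the fall of Entpd1 was not tested.

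At 20 h, again 8 of 10 members were called in each genotype, 4 higher and 4 lower, where 58.6% of all genes tested were called in Ahr+/+ cells (29.9% higher, 28.7% lower) and 54.3% in Ahr-/- cells (28.3% higher, 26% lower). The median log2 fold change of the members was -0.32 in Ahr+/+ and -0.25 in Ahr-/- cells, against 0.00 and 0.02 over all genes. The 4 genes that were higher in both genotypes were P2rx4, P2ry2, Adora2a and Adora2b. P2rx7, P2ry6 and Entpd1 were lower in both, Adora3 in Ahr+/+ and P2ry14 in Ahr-/- cells.

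**Figure D2:**
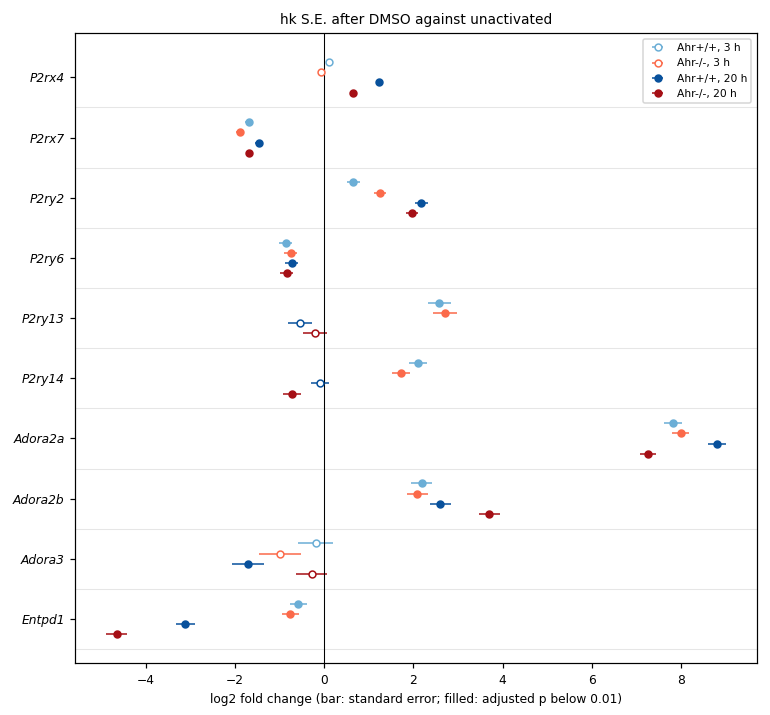
Log2 fold change of each gene between hk S.E. after DMSO and unactivated cells, by genotype and time (bars, standard error; filled points, adjusted p below 0.01 by edgeR). Adora2a lies between 7.27 and 8.80 in all 4 comparisons, and Entpd1 lies at -0.59 and -0.76 at 3 h but at -3.12 and -4.66 at 20 h.

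Time was compared within a treatment. In unactivated cells P2rx7, P2ry6 and Entpd1 were higher at 20 h than at 3 h in both genotypes, 3 of 10 members in each (6.07% of all genes tested were called in Ahr+/+ and 6.98% in Ahr-/- cells). The log2 fold changes were 0.35, 0.70 and 0.72 in Ahr+/+ and 0.29, 0.60 and 1.03 in Ahr-/- cells, so the same 3 genes that hk S.E. lowered rose with time in culture. Leaving out 1 library of Ahr-/- cells (replicate 3 or 4 at 3 h, or replicate 2 at 20 h) left 1 call, and the Entpd1 call in Ahr+/+ cells was made in 1 of 8 such fits. Unactivated Ahr-/- libraries at 20 h all carry identifiers of 1 series and those at 3 h, apart from replicate 1, those of another. With the series as a covariate, 0 of the 3 Ahr-/- calls held (adjusted p = 0.0694 for P2rx7, 0.0113 for P2ry6 and 0.0167 for Entpd1 by edgeR), and with the compared groups alone only Entpd1 was called. In activated cells 7 members were called in Ahr+/+ (4 higher, 3 lower) and 8 in Ahr-/- cells (5 higher, 3 lower), where 59.5% and 56% of all genes were called. P2ry13, P2ry14 and Entpd1 were lower at 20 h in both genotypes, by 2.96, 2.00 and 1.81 on the log2 scale in Ahr+/+ cells. P2rx4, P2rx7 and P2ry6 were higher at 20 h in both genotypes, P2ry2 in Ahr+/+ and Adora2b and Adora3 in Ahr-/- cells. The Adora3 difference of 1.69 (SE 0.445, adjusted p = 8.00e-04 by edgeR) came from libraries of 3 to 45 read pairs that overlapped, and it was not called when the compared groups were fitted alone (adjusted p = 0.0307) nor with the identifier series as a covariate (adjusted p = 0.0123 by edgeR). The Ahr-/- libraries with DMSO and hk S.E. carry library identifiers of 1 series at 3 h and of another at 20 h, so within a series this time comparison has no value. With the covariate, estimated for these series from unactivated groups only, the other 7 calls held. That fit cannot separate time from series in activated cells.

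Whether the effect of hk S.E. itself differed between 20 h and 3 h was tested as an interaction, called for 5 members in Ahr+/+ cells (47.8% of all genes) and for 6 in Ahr-/- cells (44.7%). In Ahr+/+ cells the difference was 1.14 for P2rx4, 1.53 for P2ry2 and -2.53 for Entpd1, beside the values of P2ry13 and P2ry14 given above. In Ahr-/- cells it was 0.72 for P2rx4, 0.72 for P2ry2, 1.62 for Adora2b and -3.90 for Entpd1. The hk S.E. effect on Entpd1 in Ahr-/- cells was -0.61 at 3 h within 1 series of library identifiers (4 activated and 3 unactivated libraries). At 20 h it was -4.67 within a different series (4 and 4). With the series as a covariate all 6 members were still called (Entpd1 -3.98, adjusted p = 1.92e-17 by edgeR). What the series stand for is not stated in the sources used here.

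The next comparison asks what the lack of AhR changed. In unactivated cells at 3 h edgeR called 0 of 10 members, where 1.21% of all genes were called (0.241% higher, 0.97% lower). DESeq2 and limma on the deposited log2 values called 0 as well. By edgeR 2 members had an unadjusted p below 0.05 (P2rx4 and P2ry13), as had 1452 of the 14537 genes tested. P2rx4 was called without replicate 1 of the Ahr-/- cells (log2 fold change 0.27). In unactivated cells at 20 h, 1 member was called, Adora2a (0.702% of all genes, 0.22% higher). Its Ahr+/+ libraries held 0.209, 0.251, 0.142 and 0.175 CPM and its Ahr-/- libraries 0.556, 0.618, 0.553 and 0.457 CPM. All values were below 1 CPM, and the groups did not overlap. On the log2 scale Ahr-/- cells were higher by 1.5 (SE 0.262, adjusted p = 3.22e-04 by edgeR), but most Ahr+/+ reads came from the library of 233047331 read pairs, and without it the adjusted p was 0.0287. It was 0.0491 with the replicate as a random block in limma. Fibroblast markers, 4 genes of which 2 were tested, summed to 0.346 to 0.887 CPM in these Ahr+/+ and 0.557 to 8.30 CPM in these Ahr-/- libraries, with Col3a1 and Pdgfra below 0.5 CPM in every library, and megakaryocyte markers to 76.3 to 95.2 and 50.1 to 73.4 CPM. Their part in the difference was not tested.

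With hk S.E. at 3 h, 1 member was called higher in Ahr-/- than in Ahr+/+ cells, again Adora2a (2.83% of all genes, 1.22% higher and 1.61% lower). On the log2 scale the difference was 0.50 (SE 0.125, adjusted p = 0.00796 by edgeR) from the libraries given above, of which the lowest in Ahr-/- cells (88.9 CPM) was above the highest in Ahr+/+ cells (78.0 CPM). The call was lost in 6 of 8 fits that leave out 1 library, with an adjusted p of up to 0.103 without replicate 2 of the Ahr-/- cells, and with the replicate as a random block in limma (adjusted p = 0.0117). Replicates 1 and 2 of the Ahr-/- cells were the higher pair for Adora2a, and also for P2ry2, P2ry6 and Adora2b, with each of DMSO, BaP and I3C at 3 h. Megakaryocyte markers summed to 89.6 to 117 CPM in Ahr+/+ and 48.8 to 60.1 CPM in Ahr-/- libraries with DMSO and hk S.E. at 3 h, and fibroblast markers to 0.0703 to 0.554 and 0.436 to 3.79 CPM. Their part in the difference of Adora2a was not tested.

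With hk S.E. at 20 h, Entpd1, P2rx4 and P2ry2 were lower and Adora2b was higher in Ahr-/- than in Ahr+/+ cells, 4 of 10 members (1 higher, 3 lower), where 12.5% of all genes were called (5.06% higher, 7.39% lower). Of the 4, Entpd1 differed most. Its Ahr+/+ libraries held 12.5 to 22.9 CPM and its Ahr-/- libraries 5.19 to 9.24 CPM, without overlap, and the log2 fold change was -1.43 (SE 0.207, 2.70-fold lower, adjusted p = 6.49e-07 by edgeR). Adora2b held 30.3, 27.7, 23.6 and 29.6 CPM in Ahr+/+ and 58.6, 67.5, 39.5 and 49.3 CPM in Ahr-/- libraries, which did not overlap, a log2 fold change of 0.95 (SE 0.212, adjusted p = 6.96e-04 by edgeR). P2rx4 held 458, 461, 469 and 496 CPM in Ahr+/+ and 366, 359, 346 and 346 CPM in Ahr-/- libraries, a log2 fold change of -0.41 (SE 0.0623, adjusted p = 1.67e-06 by edgeR). For P2ry2 it was -0.49 (SE 0.135, adjusted p = 0.00627 by edgeR), from 46.3 to 54.5 CPM in Ahr+/+ and 34.4 to 37.7 CPM in Ahr-/- libraries, and this call was made in only 2 of 8 fits that leave out 1 library.

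All activated Ahr+/+ libraries at 20 h carry library identifiers of 1 series and all Ahr-/- libraries at 20 h those of another, so within a single series this comparison has no value. Only unactivated groups hold libraries of both series, so a covariate for the series is estimated from those and carried over to activated cells. It cannot separate genotype from series here. In that fit Entpd1 was called (log2 fold change -1.72, adjusted p = 8.25e-06 by edgeR). P2rx4 (adjusted p = 0.0336 by edgeR), Adora2b (0.0181) and P2ry2 (0.460) were not. Dendritic cell markers, 4 genes of which 2 were tested, summed to 0.859 to 1.83 CPM in these Ahr+/+ libraries and 0.0750 to 0.442 CPM in these Ahr-/- libraries, with Siglech and Xcr1 below 0.2 CPM in every library. Fibroblast markers summed to 0.299 to 0.754 and 0.412 to 3.05 CPM, and megakaryocyte markers to 12.7 to 19.4 and 9.16 to 54.5 CPM. The part of these lists in the 4 differences was not tested.

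The effect of hk S.E. was also compared between genotypes. At 3 h edgeR called 0 members (0.0138% of all genes), with 1 at an unadjusted p below 0.05 (867 of the 14537 genes tested). DESeq2 and limma on the deposited log2 values called 0. At 20 h it was called for 3 members (4.41% of all genes), all lower in Ahr-/- cells: P2rx4 (-0.59, SE 0.0881, adjusted p = 6.13e-06), Entpd1 (-1.54, SE 0.280, adjusted p = 1.35e-04) and Adora2a (-1.54, SE 0.288, adjusted p = 2.17e-04), all by edgeR. For Entpd1 this was a deeper fall in Ahr-/- cells from a like unactivated level, and for P2rx4 a smaller rise. For Adora2a the activated levels were alike (difference between genotypes -0.04, 95% confidence interval -0.29 to 0.21), so the value rests on the unactivated libraries below 1 CPM, and limma on the deposited log2 values did not call it (adjusted p = 0.0831). With the replicate as a block, Adora2b (1.01, adjusted p = 0.00249) and P2ry14 (-0.64, adjusted p = 4.63e-04) were called too by edgeR. That fit called 1505 of all genes, against 641 without the block.

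**Figure D3:**
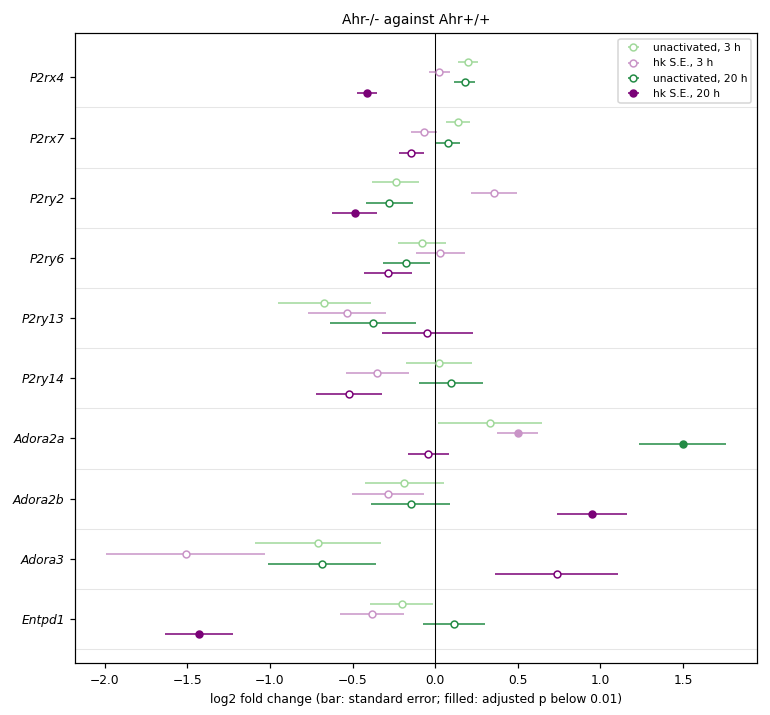
Log2 fold change of each gene between Ahr-/- and Ahr+/+ cells, unactivated or with hk S.E. after DMSO, at 3 h and 20 h (bars, standard error; filled points, adjusted p below 0.01 by edgeR). At 20 h with hk S.E. Entpd1 lies at -1.43, P2ry2 at -0.49, P2rx4 at -0.41 and Adora2b at 0.95, and the other filled points are Adora2a at 1.5 and 0.50.

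The last comparisons ask what the AhR ligands changed in activated cells. By edgeR none of the 10 members was called for either ligand, genotype or time, and DESeq2 and limma on the deposited log2 values called 0 as well. In Ahr+/+ cells, 0.0482% of all genes were called with BaP at 3 h and 0.234% at 20 h, and 0.131% (0.117% lower) and 0.509% (0.461% lower) with I3C. The shares in Ahr-/- cells were 0.0275% and 0.0138% with BaP and 0.0206% and 0.206% with I3C. Members with an unadjusted p below 0.05 were 4 for BaP in Ahr+/+ cells at 20 h (P2ry6, P2ry13, P2ry14 and Entpd1), 2 for I3C there (P2ry13 and P2ry14), 1 for I3C in Ahr+/+ cells at 3 h (P2rx4) and 0 in the 5 other comparisons. Of the 14537 genes tested, 1510, 831 and 744 had such a p, in the same order, and 258 to 862 in the 5 others. The median log2 fold change of the members with BaP was 0.21 in Ahr+/+ and 0.00 in Ahr-/- cells at 20 h.

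P2ry13, the ADP receptor, held 3.63, 3.82, 3.08 and 3.02 CPM with BaP and hk S.E. in Ahr+/+ libraries at 20 h against 1.93, 2.13, 1.38 and 1.19 CPM with DMSO. With I3C it held 2.79, 3.39, 2.87 and 2.83 CPM. Every library with a ligand was above every library with DMSO. The log2 fold change was 1.05 with BaP (95% confidence interval 0.53 to 1.57, adjusted p = 0.0387 by edgeR) and 0.87 with I3C (0.33 to 1.40, adjusted p = 0.143). With the replicate as a block, both were called (adjusted p = 2.95e-04 and 0.00596 by edgeR). The block fit called 271 of all genes with BaP and 147 with I3C, against 34 and 74 without the block. The block rests on reading replicate numbers as mice, which the labels do not state, and in Ahr+/+ cells 10 of 16 pairs of same-numbered ligand and DMSO libraries deviated together (correlation above 0.1). In 15 of the 16 the same number correlated more than any other number.

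P2ry14, the UDP-glucose receptor next to it on chromosome 3, held 17, 17.9, 13.4 and 17.9 CPM with BaP, 14.9, 15.6, 12.4 and 14.6 CPM with I3C and 9.70, 12, 7.10 and 10.2 CPM with DMSO in the same cells. Replicate 3 was the lowest with each treatment, and ligand and DMSO libraries did not overlap. The log2 fold change was 0.77 with BaP (0.37 to 1.16, adjusted p = 0.0457 by edgeR) and 0.56 with I3C (0.17 to 0.96, adjusted p = 0.295). With the replicate as a block both were called (adjusted p = 1.04e-07 and 7.40e-05 by edgeR).

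Entpd1 held 33.5, 38.8, 20.6 and 28.0 CPM with BaP, 30.2, 25.9, 14.1 and 18.2 CPM with I3C and 22.9, 22.4, 12.5 and 15.7 CPM with DMSO in Ahr+/+ libraries at 20 h. The libraries overlapped between treatments, but in each replicate number BaP was above I3C and I3C above DMSO. The log2 fold change was 0.72 with BaP (0.33 to 1.12, adjusted p = 0.0626 by edgeR), which was called with the replicate as a block (adjusted p = 1.68e-05), and 0.27 with I3C (-0.13 to 0.67), which was not. BaP was given at 1 µM and I3C at 10 µM, so their values stand side by side and were not tested against each other. P2ry6 with BaP was 0.29 (0.01 to 0.58, adjusted p = 0.467 by edgeR), with libraries at 131 to 140 CPM against 104 to 125 CPM with DMSO.

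In Ahr-/- cells at 20 h the intervals of all 10 members included 0 for both ligands. P2ry14 held 5.31, 6.25, 7.16 and 7.41 CPM with BaP against 5.79, 5.85, 7.43 and 7.93 CPM with DMSO, a log2 fold change of -0.05 (-0.45 to 0.36), and P2ry13 was at -0.12 (-0.66 to 0.42) and Entpd1 at -0.04 (-0.47 to 0.38). The difference of the BaP effect between genotypes at 20 h was -1.17 for P2ry13 (adjusted p = 0.548), -0.82 for P2ry14 (adjusted p = 0.669) and -0.76 for Entpd1 (adjusted p = 0.787), none called by edgeR. With the replicate as a block, that of P2ry14 was called (-0.83, adjusted p = 5.56e-04 by edgeR), in a fit that called 26 of all genes. Without the block, 0% of all genes tested were called for the BaP effect between genotypes at 20 h and 0.0138% at 3 h, and 0% for I3C at either time. For these 4 interactions edgeR, DESeq2 and limma on the deposited log2 values called 0 members, and 2 (BaP, 3 h), 3 (BaP, 20 h), 0 (I3C, 3 h) and 2 (I3C, 20 h) had an unadjusted p below 0.05 by edgeR. Of the 14537 genes tested, 372, 679, 241 and 287 had such a p, in the same order.

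**Figure D4:**
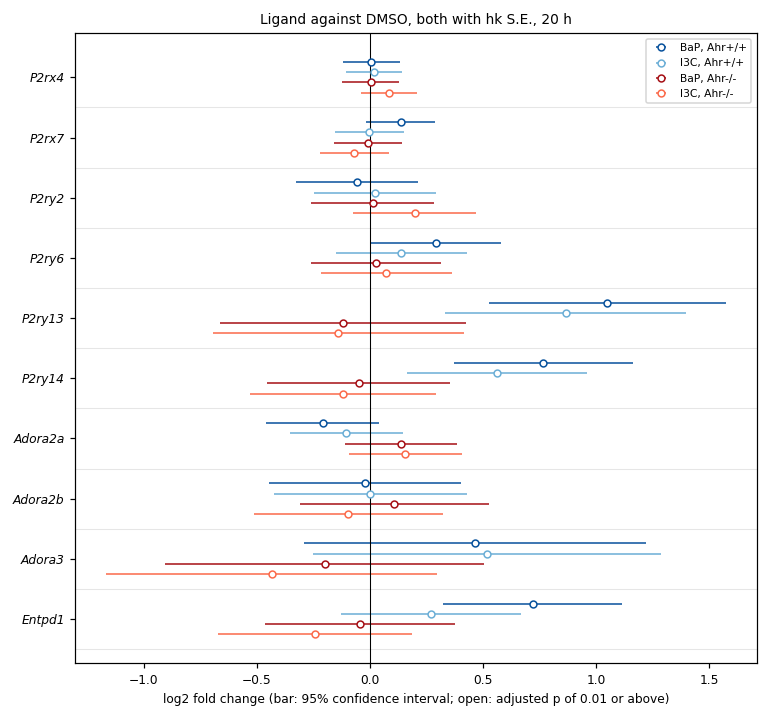
Log2 fold change of each gene between BaP or I3C and DMSO, all with hk S.E., at 20 h in Ahr+/+ (blue) and Ahr-/- (red) cells (bars, 95% confidence interval; open points, adjusted p of 0.01 or above by edgeR). P2ry13 lies at 1.05 and 0.87, P2ry14 at 0.77 and 0.56 and Entpd1 at 0.72 and 0.27 for BaP and I3C in Ahr+/+ cells, and all intervals in Ahr-/- cells include 0.

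For Adora2a, Adora2b and both channels in Ahr+/+ cells at 20 h, the intervals included 0 with either ligand. Adora2a with BaP in Ahr+/+ cells at 20 h was -0.21 (-0.46 to 0.04), Adora2b -0.02 (-0.45 to 0.40), P2rx4 0.01 (-0.12 to 0.13) and P2rx7 0.14 (-0.01 to 0.29). With I3C these were -0.10 (-0.35 to 0.15), 0.00 (-0.42 to 0.43), 0.02 (-0.11 to 0.14) and 0.00 (-0.15 to 0.15). The intervals of P2rx4 were the narrowest of these, and that of Adora3, which had few reads, was wide (-0.29 to 1.22 with BaP and -0.25 to 1.29 with I3C).

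The other genes of purine uptake, breakdown and sensing, a list of 38 of which 24 were tested, were counted in the same comparisons. With hk S.E. in Ahr+/+ cells, 16 were called at 3 h (6 higher, 10 lower) and 20 at 20 h (8 higher, 12 lower), with a median log2 fold change of -0.38 and -0.41. Of all genes tested 56.6% and 58.6% were called there, with medians of -0.10 and 0.00. The largest changes at 3 h were rises of Enpp4, a nucleotide pyrophosphatase family member (5.56), Slc28a2, a nucleoside transporter (4.12), Cd38, an enzyme that breaks down NAD (4.01), Pnp, which splits inosine and guanosine (3.62), and Gja1, a hemichannel protein (3.54). At 20 h they were rises of Cd38 (5.59), Enpp4 (3.83) and Slc28a2 (3.73) and falls of the pyrophosphatase Enpp1 (-4.24) and the ADP receptor P2ry1 (-3.83). In Ahr-/- cells 18 (7 higher, 11 lower) and 14 (6 higher, 8 lower) were called against 57.3% and 54.3% of all genes, with the same 5 genes leading at 3 h, and Gja1 (3.31) in place of Slc28a2 at 20 h.

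In unactivated cells 1 of the 24 was called for time in each genotype (6.07% and 6.98% of all genes), the nucleoside transporter Slc29a1 in Ahr+/+ (0.43) and Entpd5 in Ahr-/- cells (-0.41). In activated cells 15 (6 higher, 9 lower) and 13 (7 higher, 6 lower) were called, shares close to the 59.5% and 56% of all genes, among them Enpp1 (-3.48 and -3.09) and Pnp (-2.41 and -2.32) in both genotypes. Between genotypes with hk S.E., 3 were called at 3 h (2.83% of all genes), all lower in Ahr-/- cells. They were Nt5e (log2 fold change -1.23), which makes adenosine from the product of Entpd1, Bst1 (-0.65), an enzyme of the Cd38 family, and Adk (-0.56), which turns adenosine back to AMP inside the cell. At 20 h 5 were called (12.5% of all genes), P2ry10 (-2.60) and Bst1 (-0.43) lower and Gja1 (0.90), Entpd6 (0.50) and Adk (0.48) higher in Ahr-/- cells. As for the members, the genotypes share no identifier series there, so genotype and series cannot be told apart. P2ry10 was low, at 0.868 CPM in Ahr+/+ and 0.134 CPM in Ahr-/- cells. Nt5e at 3 h (adjusted p = 0.00950) and Bst1 at 20 h (0.00946) were just below the threshold by edgeR. For the ligands 1 was called in 8 comparisons, Adk with I3C in Ahr+/+ cells at 20 h (-0.72, adjusted p = 7.67e-04 by edgeR), where 0.509% of all genes were called.

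The genes with a pattern most like each member were taken as those with the highest Pearson correlation over the 16 group means of log2 CPM. This is a description over means that share libraries and treatments. Adora2a was most like Mir155hg (r = 0.999) and Slco3a1 (0.997), P2rx7 most like Cnnm2 (0.995) and Ago4 (0.995), and P2ry13 most like Asprv1 (0.987) and Dck (0.983). P2ry14 was most like Vrk2 (0.985) and Slc30a1 (0.984), Entpd1 most like Dusp5 (0.984) and Adam8 (0.980), and Adora2b most like Wfdc21 (0.990) and Dgkh (0.989). For Adora3 the best were Usp1 (0.907) and Dbf4 (0.878).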

How the data were processed

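Stranded mRNA libraries (TruSeq) of 64 samples in 16 groups of 4 were sequenced by the authors on 1 flow cell, aligned to mm10 with HISAT2 2.1.0 and counted on GENCODE M22 genes with HTSeq 0.9.1 (intersection-strict, stranded). Tool versions were taken from the submitters' processing notes. The deposited tables hold raw counts of read pairs per gene, and a second deposited table holds variance-stabilised log2 values made by the authors with DESeq2 for 14549 genes. It was used for 1 alternative only. On genes lay 74.9% to 80.8% of the entries of a table, and the 5 entries that name no gene were left out of library sizes. No 2 libraries held identical counts.

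Counts were tested with edgeR 4.0.16 (R 4.3.3): genes passing filterByExpr with a minimum count of 10 (14537 genes), TMM normalisation, 1 mean per group over all 64 libraries (48 residual degrees of freedom) and quasi-likelihood tests with Benjamini-Hochberg adjustment over all genes. A gene was called at an adjusted p below 0.01. All 10 members were tested in all 28 comparisons, and the calls of each comparison are given. Fold changes of members with the ligands are given at 20 h only. Of the other purine genes, up to 5 called ones with the largest change were eligible to be named per comparison, and for each member the 2 genes of highest correlation. CPM are counts per 1000000 of the TMM-scaled library size, and RPKM are these per kilobase of merged exons. Exons and positions were read from GENCODE M21 on GRCm38, the build of the counts. Alternatives were DESeq2 1.42.0 and its size factors, limma 3.58.1 on the deposited log2 values, no filter, a threshold of 0.05, the groups compared only, the replicate as a block, the library identifier series as an added term, and the omission of single libraries. The members and lists were chosen with earlier results of these data known. The edgeR fit without a block, DESeq2 and limma with a block were tried on simulated counts for hk S.E. in Ahr+/+ cells at 3 h only. The simulated counts held no effect of mouse or identifier series. The edgeR replicate block, the series term, the genotype comparisons and the interactions were not tried in this way.

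Per the methods, marrow came from 4 mice of each genotype, and libraries of a genotype with 1 number were treated as dishes of 1 mouse, which the labels do not state. As a check, deviations from the group means were correlated between same-numbered libraries of the groups compared: 16 of 16 pairs of ligand and DMSO libraries exceeded 0.1 in Ahr-/- cells (0.252 to 0.643) and 10 of 16 in Ahr+/+ cells (0.0668 to 0.255). For unactivated and activated libraries it was 7 of 8 in Ahr-/- cells (-0.173 to 0.521) and 4 of 8 in Ahr+/+ cells (0.0347 to 0.253). In Ahr-/- cells the best of the differently numbered ligand and DMSO libraries exceeded 0.1 too (0.106 to 0.579). The same number gave the highest correlation in 15 of 16 ligand pairs in Ahr+/+ and 13 of 16 in Ahr-/- cells. For activation it did so in 7 of 8 and 5 of 8. Comparisons between genotypes share no mouse, and there the mouse was a random block in limma (estimated correlation 0.282). The p-values of the edgeR fit without a block rest on the spread between libraries within groups, pooled over all groups (48 residual degrees of freedom). That fit treats libraries of the same mouse as independent, although each genotype came from 4 mice. With the replicate as a block in edgeR, differences between replicate numbers are taken out of that spread.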

Additional observations from a re-analysis of the deposited data

Results flagged for a closer look

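In 7 of 160 sets of 4 libraries (10 genes in 16 groups), 1 library lay apart from the other 3 by a Dixon test at the 95% level, which chance does in about 1 of 20 sets. At 20 h in Ahr+/+ cells these were P2ry6 in replicate 3 with I3C (138.0 CPM, the highest), P2ry6 in replicate 4 with BaP (131.5 CPM, the lowest) and P2ry13 in replicate 2 with I3C (3.39 CPM, the highest). The others were P2ry2 in replicate 2 of Ahr-/- cells with I3C at 20 h (36.4 CPM, the lowest), Adora2a in replicate 1 of Ahr+/+ cells with I3C at 3 h (70.8 CPM, the lowest), and in Ahr-/- cells with DMSO and hk S.E. at 3 h P2ry13 in replicate 2 (6.54 CPM, the lowest) and Adora3 in replicate 4 (0.511 CPM, the highest). Without replicate 2 of the Ahr+/+ I3C libraries, P2ry13 would still be higher than with DMSO in all 3 remaining libraries.

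The response to hk S.E. differed between genotypes or times for 14 pairs of gene and comparison by the interaction test of edgeR. Between genotypes at 20 h (Ahr-/- minus Ahr+/+, log2) the differences were -0.59 for P2rx4, -1.54 for Adora2a and -1.54 for Entpd1. Between times (20 h minus 3 h) in Ahr+/+ cells they were 1.14 for P2rx4, 1.53 for P2ry2, -3.12 for P2ry13, -2.20 for P2ry14 and -2.53 for Entpd1. In Ahr-/- cells they were 0.72 for P2rx4, 0.72 for P2ry2, -2.93 for P2ry13, -2.44 for P2ry14, 1.62 for Adora2b and -3.90 for Entpd1. The call of P2ry2 in Ahr-/- cells was lost when the compared groups were fitted alone (adjusted p = 0.0124 by edgeR).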

How the results depend on the processing

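Under DESeq2 and under its size factors the number of members called stayed within 1.5 times in all 28 comparisons, and no call changed sign under any alternative. The shift of all genes under DESeq2's size factors was at most 0.106 on the log2 scale, for the hk S.E. effect at 20 h against 3 h in Ahr-/- cells. Counts moved as follows. For BaP in Ahr+/+ cells at 20 h, 0 calls became 2 at a threshold of 0.05 and 3 with the replicate block, and for I3C there 0 became 2 with the replicate block. Over all genes, 34 calls with BaP became 101 at 0.05 and 271 with the block, and 74 with I3C became 147 with the block. For Ahr-/- against Ahr+/+ cells unactivated at 20 h, 1 call became 0 with limma on the deposited log2 values, with the compared groups only, with the replicate block and with the identifier series as a covariate. With hk S.E. at 3 h, 1 call became 2 at 0.05, and 0 without a filter, with the compared groups only, with the replicate block and with the identifier series. With hk S.E. at 20 h, 4 became 1 with the identifier series. For time in unactivated Ahr-/- cells, 3 became 1 with the compared groups only and 0 with the identifier series. With the replicate block the hk S.E. effect between genotypes at 20 h went from 3 to 5 calls (641 to 1505 over all genes) and the BaP effect from 0 to 1 (0 to 26 over all genes). The pairing moved no other count by more than 1.5 times. It also called Adora3 for time in unactivated Ahr+/+ cells (adjusted p = 0.00955) and Adora2a (adjusted p = 0.00471) for time in activated Ahr-/- cells by edgeR. Adora3 passed for the hk S.E. effect at 20 h against 3 h in Ahr+/+ cells with the block (adjusted p = 0.00495) and by DESeq2 (adjusted p = 0.00802), and Adora2a for time in activated Ahr-/- cells by DESeq2 (adjusted p = 6.22e-04). Leaving out 1 library gave 0 to 1 calls for genotype unactivated at 3 h, 0 to 1 unactivated at 20 h, 0 to 1 with hk S.E. at 3 h, and 1 to 3 for time in unactivated Ahr-/- cells. The cause of these moves was not tested. The depth limits Adora3 throughout and Adora2a in unactivated cells, which rest on few read pairs.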
